A study of Mus musculus with 2 samples.

Results

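The complement and clotting systems of mouse liver were followed as 48 genes, listed by symbol, whose probes on an Agilent whole-genome array were found through the transcript identifier of each probe. All 48 genes had a matched probe, 61 probes in all, and 47 of them were measured, meaning that the probe used for the gene was well above background on at least 1 array. Across the array, 27218 of 39402 probes matched a named gene, which gave 20652 genes, of which 16346 were measured. The comparison was between a fasting pool and a feeding pool, and it asked how hepatic gene expression differed upon food ingestion.

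Each group was 1 array, hybridised with liver RNA pooled from 3 male mice. The fasting mice had been without food for 16 h according to one label and for 14 to 16 h overnight according to another. The feeding mice are described in one place as having free access to food and in another as having taken food after the fast, so both descriptions are kept here. The labels give no genotype, strain or age and name no drug for either group. The study's methods name C57BL/6J males without tying them to these arrays. A single array stood for each group, so no difference below could be checked against replicates, and values are given without a p-value. All changes below are log2 values, feeding minus fasting, after quantile normalization of the 2 arrays, and the signals are the scanner's processed intensities before that step. In whole liver, fewer cells of a type and less RNA per cell cannot be told apart.

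Complement is a plasma cascade in which C1 or the lectin-bound proteases cleave C4 and C2, the resulting enzymes split C3, and the terminal proteins assemble a pore in a target membrane. Clotting is a parallel cascade of zymogens and cofactors that ends in thrombin and fibrin, and it is held in check by the protein C system and undone by plasmin. Hepatocytes secrete most of these proteins. C1q is made mainly by macrophages, while the surface proteins tissue factor and thrombomodulin are made by other cells too.

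The promoters shown are those of the 3 fibrinogen chains, which are neighbours on chromosome 3 and of which 1 chain differed between the arrays by more than the others, and that of F3, the only member past 2-fold upward. Each is the 250 bases before the annotated RefSeq start in GRCm38.p6, written 5′ to 3′ along the gene. Capitals mark the matches of any of 5 short motifs, searched on both strands: the IL-6 response element CTGGGAA, the HNF1 half-site ATTAAC, the AP-1 site TGANTCA, the TATA box TATAAA and the GC box GGGCGG. No 2 of the matches shown overlap.
Fgg, chr3:83007474-83007723, plus strand: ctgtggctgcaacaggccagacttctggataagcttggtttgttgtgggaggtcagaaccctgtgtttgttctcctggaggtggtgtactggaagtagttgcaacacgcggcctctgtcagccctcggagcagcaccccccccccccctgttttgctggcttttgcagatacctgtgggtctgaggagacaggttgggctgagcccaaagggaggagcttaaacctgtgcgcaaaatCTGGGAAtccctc
Fga, chr3:83025903-83026152, plus strand: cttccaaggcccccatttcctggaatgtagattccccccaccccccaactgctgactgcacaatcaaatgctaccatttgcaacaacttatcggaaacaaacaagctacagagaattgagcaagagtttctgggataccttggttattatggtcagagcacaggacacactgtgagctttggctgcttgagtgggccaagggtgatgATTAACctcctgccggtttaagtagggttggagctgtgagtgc
Fgb, chr3:83049864-83050113, minus strand: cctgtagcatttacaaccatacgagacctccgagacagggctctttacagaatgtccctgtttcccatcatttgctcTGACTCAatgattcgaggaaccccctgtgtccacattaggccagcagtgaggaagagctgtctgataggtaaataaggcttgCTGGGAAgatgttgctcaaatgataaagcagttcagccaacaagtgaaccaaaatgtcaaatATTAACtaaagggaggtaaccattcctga
F3, chr3:121723287-121723536, plus strand: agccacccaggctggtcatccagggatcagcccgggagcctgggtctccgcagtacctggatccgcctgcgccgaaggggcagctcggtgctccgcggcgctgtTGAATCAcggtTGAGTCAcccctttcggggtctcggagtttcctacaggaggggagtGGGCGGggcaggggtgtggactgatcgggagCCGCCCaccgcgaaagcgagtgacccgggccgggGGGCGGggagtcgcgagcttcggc

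The IL-6 response element lay 13 bases before the start of Fgg and 91 before that of Fgb, and the Fga window held no match to these letters. The HNF1 half-site lay 43 bases before the start of Fga and 29 before that of Fgb. The F3 window held AP-1 matches at 146 and 135 bases before the start and GC boxes at 89, 58 and 24, the one at 58 on the opposite strand. Among all 32851 promoter windows of the same length, 9.10% held the IL-6 response element, 6.43% the HNF1 half-site, 6.75% the AP-1 site, 12.4% the TATA box and 32.7% the GC box. Of the 48 members, 35 had a promoter in the table, and 5 of these 35 held the IL-6 response element, 9 the HNF1 half-site, 4 the AP-1 site, 2 the TATA box and 5 the GC box. These matches describe letters only.

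Of the 47 measured complement and clotting genes, 38 (80.9%) changed by less than 1.5-fold between the fasting and the feeding liver, a share near the 78.9% of all measured genes and the 82.7% of genes in the brightest of 3 equal groups by signal. Of the members, 1 was at least 2-fold higher upon feeding (F3, tissue factor, the trigger of clotting) and 3 were at least 2-fold lower (C1qa, a chain of complement C1q; Plg, the zymogen of plasmin; and Plat, tissue plasminogen activator). Those 4 are 8.51% of the measured members. Among all 16346 measured genes 7.91% were past 2-fold in either direction, 3.29% at least 2-fold higher and 4.62% at least 2-fold lower, so the members' share was close to the background and says nothing particular about them. Thbd, thrombomodulin, lay just short of the threshold at 1.99-fold lower. Plau, urokinase, read 3.32 and 7.21, too close to background on each array to count as measured.

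The median change was -0.09 over the 24 complement genes, -0.03 over the 16 clotting factors and -0.19 over the 7 measured regulators and fibrinolysis genes, and it was -0.08 over all 47 members. The 14515 genes well above background on both arrays, as all 47 members were, had a median of 0.00 (-0.000959). These family medians depend on the scaling: with each array divided by its median signal they were 0.11, 0.14 and 0.01, while the median of those genes on both arrays moved to 0.12. The direction of a whole family relative to 0 thus turned with the scaling, while that of the 4 called members did not.

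**Figure D1:**
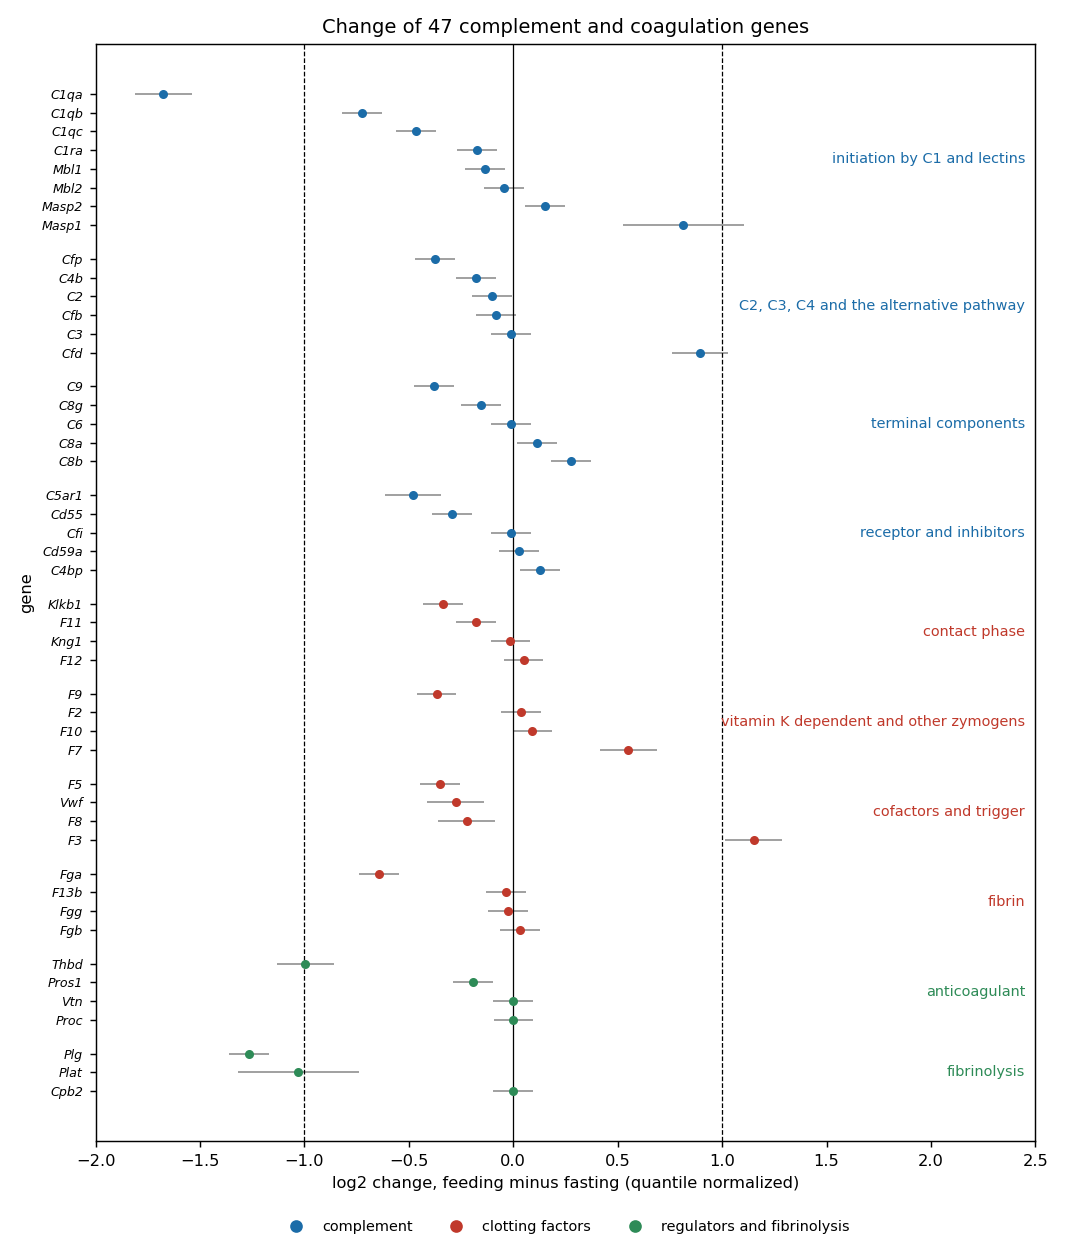
Log2 change (feeding minus fasting, quantile normalized) of the 47 measured members, grouped by role; dashed lines mark 2-fold. The bars span plus or minus 1 SD of a difference between replicate spots of probes of similar brightness (genes were split by signal into 3 equal groups: 0.29 for the dimmest group, 0.14 for the middle and 0.10 for the brightest), which is technical and holds no spread between mice, and C1qa, Plg and Plat lie beyond the dashed line on the left and F3 beyond the one on the right.

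The 3 chains of C1q, the recognition part of the classical pathway, were all lower upon feeding, and C1qa was the lowest of the 47 members. The processed signal of C1qa was 1546 upon fasting and 448.2 upon feeding, a change of -1.68 or 3.19-fold lower. For C1qb it was 4798 and 2817, a change of -0.73. For C1qc it was 23580 and 16856, a change of -0.47. C1qc was printed at 10 places on each array: the lowest of the 10 fasting spots read 21961, the median 23623 and the highest 24695, while the 10 feeding spots ran from 15440 through a median of 16978 to 17785. The spots of the 2 arrays did not overlap. Their spot-to-spot SD was 0.05 (fasting) and 0.06 (feeding) on the log2 scale, which is technical and holds no spread between mice. C1qa, C1qb and C1qc lie next to each other on mouse chromosome 4, and the changes of C1qa and C1qc were 1.21 apart.

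Markers of macrophages, the main makers of C1q, were mostly lower upon feeding as well. Of the 8 Kupffer cell or macrophage markers 7 had a matched probe, and 6 of those 7 were lower upon feeding, with a median change of -0.36 and a summed signal of 71252 upon fasting and 51732 upon feeding. Summed signals here and below are not normalized between the arrays, and the brightest probes weigh most in them. Adgre1, the macrophage surface protein F4/80, read 13121 and 6943, a change of -0.89, and its other probe changed by -0.93. Csf1r, the receptor for macrophage colony-stimulating factor, changed by -0.52, with its other probes at -0.53 and -0.24. Clec4f, a lectin of Kupffer cells, changed by -0.41. These were the largest drops, while Cd5l changed by -0.12 and Marco, the only marker of the list that was higher, by 0.20. With median scaling 5 of the 7 were lower, with a median of -0.18. The 8 hepatocyte markers had a median of -0.01 (0.15 with median scaling) and a summed signal of 764468 and 715223, with Alb, albumin, at -0.07 and Hnf4a, a hepatocyte transcription factor, at -0.43. The part of macrophage RNA content in the C1q values was not tested.

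**Figure D2:**
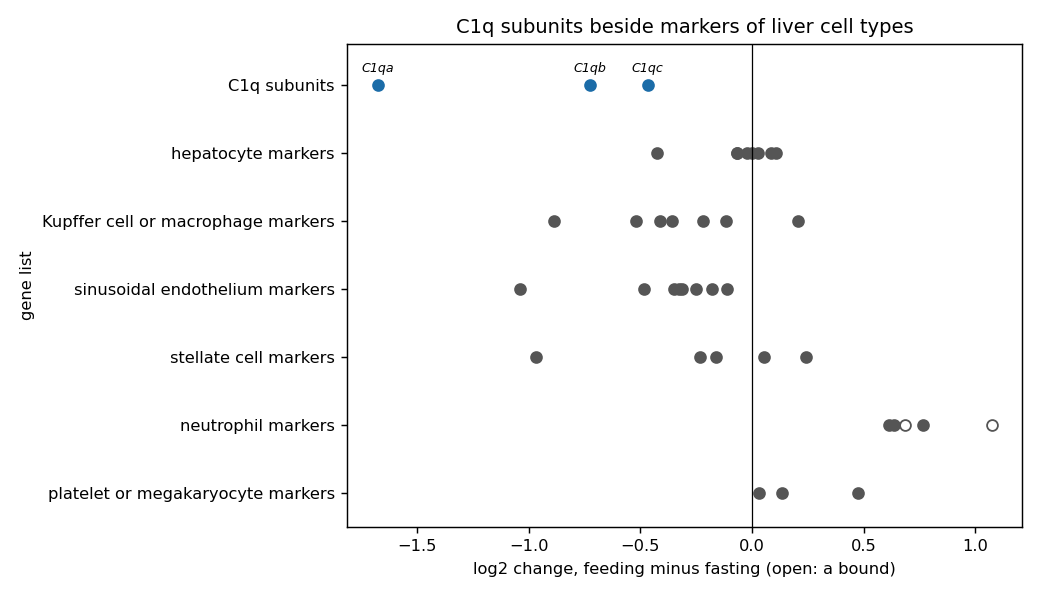
Log2 change (feeding minus fasting) of the 3 C1q chains and of the measured markers of 6 liver cell types, 1 point per gene; open points are lower bounds of the change for genes well above background on 1 array only, and genes with no bound above 0 are not drawn. The C1q chains lie at -1.68, -0.73 and -0.47, the hepatocyte markers run from -0.43 to 0.11, and the neutrophil markers lie at 0.61 or higher.

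The proteases and lectins that work beside C1q differed little. C1ra, the C1r protease, changed by -0.17, with its other probe at -0.12. The mannose-binding lectins changed by -0.13 (Mbl1) and -0.04 (Mbl2). Masp2, the lectin-pathway protease that cleaves C4, read 11708 and 12827, a change of 0.15, with its other probes at -0.08 and 0.32. Masp1, a further lectin-pathway protease, read 23.0 and 35.2, a change of 0.81. That probe was close to background, and the change was 0.10 with a model-based background correction (normexp).

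At the centre of the cascade the signals were almost level. C3, the protein on which all activation routes converge, read 140624 upon fasting and 134680 upon feeding, the highest signal of any member, and changed by -0.01. Its replicate spots ran from 131182 to 151860 upon fasting (median 140032, 9 spots) and from 121887 to 159433 upon feeding (median 133592, 10 spots), so that the arrays overlapped. C2, C4b and Cfb, which supply the C3-cleaving enzymes, changed by -0.10, -0.18 and -0.08. Cfp, properdin, the stabiliser of the alternative pathway enzyme, read 10830 and 8279, a change of -0.38. Cfd, the factor D protease that adipocytes make in quantity, read 125.7 and 202.5, a change of 0.89 that came to 0.55 with the normexp correction. Of the 5 adipocyte markers, Adipoq and Lep were not detected above background and Plin1 only upon feeding, while Fabp4 read 9070 and 8501 (a change of -0.06) and Retn 18.4 and 22.0 (a change of 0.42, its other probe 0.71). The part of adipocyte RNA in the Cfd value was not tested.

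The 3 chains of C8, a component of the membrane pore, differed in their changes. C8a read 5435 and 5780, a change of 0.11, with its dimmer probe at 0.30. C8b, its neighbour on chromosome 4, read 7976 and 9521, a change of 0.28. C8g read 44477 and 38849, a change of -0.15, while its dimmer probe changed by -0.50. With median scaling the change of C8g turned to 0.04, so that all 3 chains were above 0, C8a at 0.32 and C8b at 0.49. With the normexp correction C8a and C8b both changed by 0.13 and C8g by -0.07, so the gap between C8a and C8b depends on the background correction. C9, which forms the wall of the pore, read 3586 and 2695, a change of -0.38, and C6 changed by -0.01.

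Among complement receptors and inhibitors the C5a receptor was the lowest. C5ar1, found on myeloid cells, read 190.7 and 118.3, a change of -0.48 that came to -0.26 with the normexp correction. Cd55, which speeds the decay of the C3-cleaving enzymes, read 1703 and 1332, a change of -0.30 (-0.20 with normexp). The other inhibitors lay close to 0: Cfi, the protease that inactivates C3b and C4b, at -0.01, Cd59a, which blocks pore assembly, at 0.03, and C4bp, a cofactor of that protease, at 0.13.

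**Figure D3:**
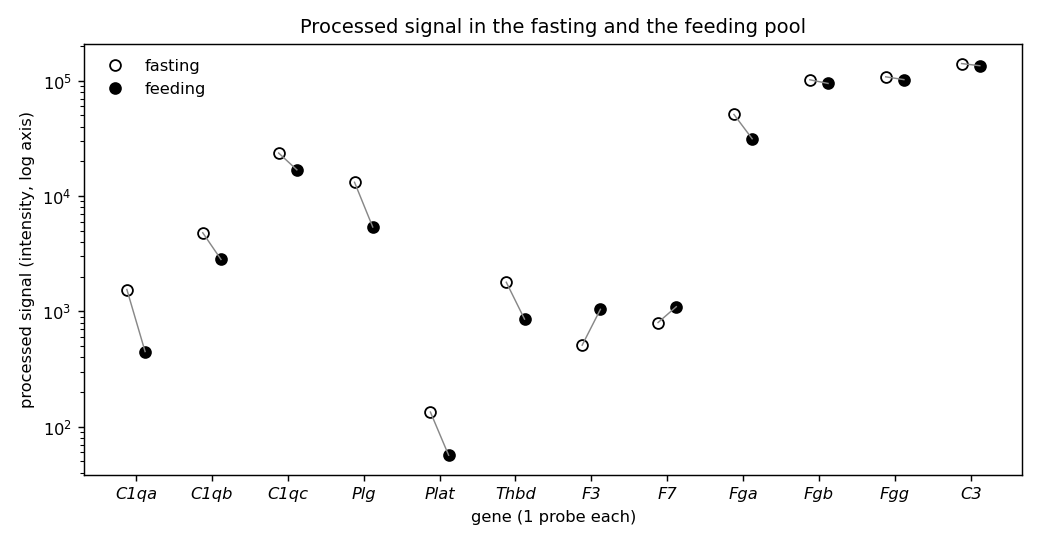
Processed signal (intensity, log axis, not normalized between arrays) of 12 members in the fasting pool (open) and the feeding pool (filled), 1 probe per gene and 1 array per point. The slope within a gene is the comparison: C1qa drops from 1546 to 448.2 and F3 climbs from 508.9 to 1040, while C3 reads 140624 and 134680, and signals of different genes cannot be set against each other because each probe binds with its own strength.

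Tissue factor, the membrane protein that starts clotting by binding factor VII, was the member with the largest increase. F3 read 508.9 upon fasting and 1040 upon feeding, a change of 1.15 or 2.22-fold higher. Its other, dimmer probe read 46.9 and 73.1, a change of 0.86 in the same direction. The value fell below 2-fold with the normexp correction (0.88) and on the raw median signal without background correction (0.99). F7, factor VII itself, read 799.7 and 1097, a change of 0.55, and its other probe changed by 0.48. Both genes of the trigger were thus higher upon feeding on every probe measured.

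The remaining zymogens were level or slightly lower. F9 read 14250 and 11032, a change of -0.37. F2, prothrombin, changed by 0.04. F10, which lies beside F7 on chromosome 8, changed by 0.09 on its brighter probe (17907 and 18965) and by -0.78 on a dimmer probe (3049 and 1728) that was designed to a different transcript of the gene. That gap of 0.87 was the widest between probes of any member, so the F10 value depends on the probe. In the contact phase, which starts clotting on charged surfaces, Klkb1, prekallikrein, read 8273 and 6401 (a change of -0.34), and its chromosomal neighbour F11 read 2929 and 2509 (a change of -0.18, which turned to 0.01 with median scaling). F12 changed by 0.05 and Kng1, kininogen, by -0.01.

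Of the cofactors, F5 read 12718 and 9846, a change of -0.35, and its dimmer probe changed by -0.65. Vwf, von Willebrand factor, an endothelial protein that carries factor VIII, read 560.3 and 418.6, a change of -0.28, and F8 changed by -0.22. All 8 markers of sinusoidal endothelium were lower upon feeding as well, with a median of -0.32 and a summed signal of 43833 and 33693 (6 of the 8 lower and a median of -0.13 with median scaling). Clec4g, an endothelial lectin, changed by -0.48 and Pecam1, an adhesion protein of endothelial junctions, by -1.04 (497.4 and 214.4). The part of endothelial RNA content in the Vwf, F8 and thrombomodulin values was not tested.

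The fibrinogen chains, assembled into 1 protein from 3 neighbouring genes, differed from each other. Fga read 50933 and 31358, a change of -0.64, and its other probe, designed to the same transcript, read 3811 and 2516, a change of -0.56. Fgb read 101732 and 94575, a change of 0.03. Fgg read 107937 and 102050, a change of -0.03. The change of Fga was thus 0.68 from that of Fgb and 0.62 from that of Fgg, a gap between single pools whose spread between mice and hybridisations was not measured. F13b, the carrier subunit of the fibrin cross-linking enzyme, read 12920 and 12357 over 10 spots per array and changed by -0.04.

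The regulators held 2 of the 3 members past 2-fold downward. Plg read 13149 upon fasting and 5381 upon feeding, a change of -1.26 or 2.4-fold lower. It was the only called member in the brightest of 3 equal groups of genes, where 1 of 37 members (2.70%) and 5.8% of all genes were past 2-fold. Plg ranged from -1.33 to -1.05 over the alternative settings, and it had a single probe. Plat, which activates plasminogen, read 133.8 and 56.6, a change of -1.03 or 2.04-fold lower. Its probe was in the dimmest of the 3 groups, and the change was -0.39 with the normexp correction and -0.59 on the raw median signal, so that call rests on the background correction. Cpb2, the carboxypeptidase that slows fibrinolysis, read 43177 and 41823 and held the same rank on both arrays, a change of 0.00.

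On the anticoagulant side, Thbd, the endothelial receptor that turns thrombin into an activator of protein C, read 1787 and 856.6, a change of -0.995 that came to -0.83 with median scaling. Proc, protein C, read 21009 and 20682, a change of 0.00. Pros1, its cofactor protein S, read 5733 and 4898, a change of -0.19 that turned to 0.01 (0.00797) with median scaling. Vtn, vitronectin, was grouped with these genes but is not itself an anticoagulant: it is a plasma protein that stabilises the inhibitor of plasminogen activators. Vtn read 73626 and 70265 and changed by 0.00. Its spots overlapped between the arrays, from 67410 to 79670 upon fasting (9 spots) and from 63244 to 75775 upon feeding (10 spots).

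The members sat at the bright end of the array, where changes were small. Of the 47 members, 29 were in the brightest 10% of genes, and their median size of change was 0.09, against 0.43 for the other 18. All genes of that brightest 10% had a median size of change of 0.20, and 6.61% of them were past 2-fold. No spot of either array was marked as saturated. Quantile normalization added between 0.00162 and 0.21 to the members' changes (median 0.04). The median processed signal of all non-control spots was 61.5 upon fasting and 52.8 upon feeding. Before normalization 37 members were lower upon feeding, and after it 31 were lower, 14 higher and 2, Vtn and Cpb2, held the same rank on both arrays and so had a change of exactly 0. Of all 16346 measured genes, 7383 were lower and 7802 higher after normalization. In the brightest 10% of genes 779 were lower and 846 higher. The members' counts depended on the scaling: with the 75th percentile of each array 24 were lower and 23 higher.

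**Figure D4:**
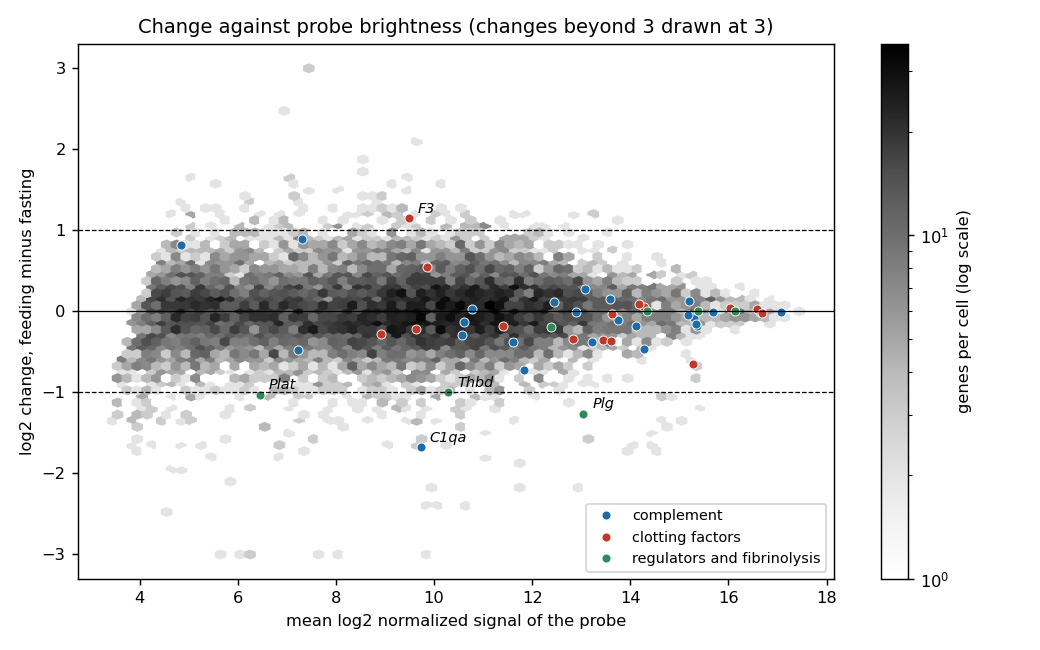
Log2 change (feeding minus fasting) against the mean log2 normalized signal of the probe, for the 14515 genes well above background on both arrays (grey cells, darker for more genes) and the 47 members (coloured by family); dashed lines mark 2-fold. The members gather at the right, where the grey cells narrow towards 0, and C1qa, Plg, Plat and F3 lie beyond the dashed lines.

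A second view of brightness came from members with several probes. Of 11 such members, 8 had the same sign on all their probes, and in 7 of the 11 the dimmest probe showed the larger change. For C8g the change was -0.15 on the bright probe and -0.50 on the dim one, and for F5 -0.35 and -0.65. The reverse order held for F3, F7, Fga and C1ra. The arrays gave no single relation between brightness and size of change within a gene.

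**Figure D5:**
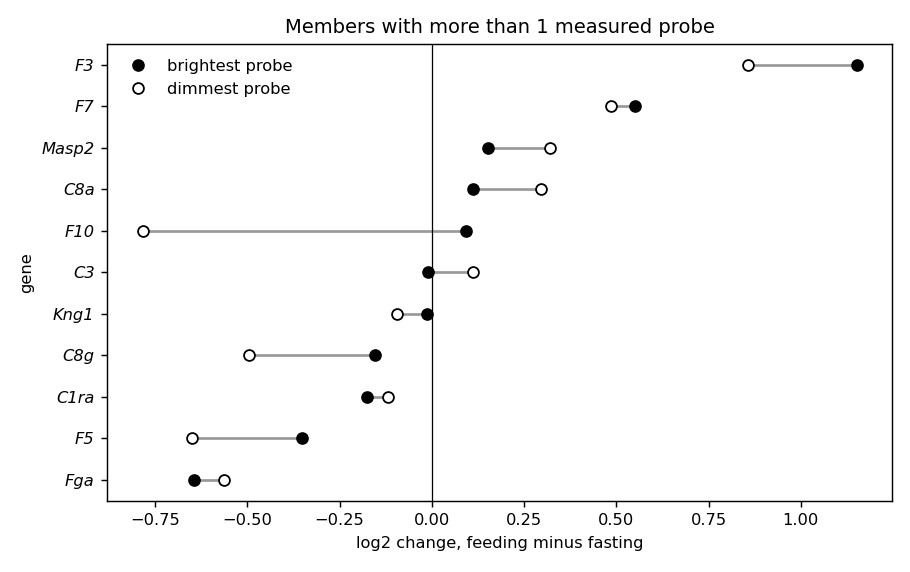
Log2 change (feeding minus fasting) of the 11 members with more than 1 measured probe, on the brightest probe (filled) and the dimmest probe (open) of each gene. The ends of each line lie close together for C1ra, F7, Fga and Kng1, and furthest apart for F10, at 0.09 and -0.78.

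The other genes of both pathways were described from a list of 51, of which 48 were measured. Of these 48, 3 were past 2-fold, all higher upon feeding, which is 6.25% against 7.91% of all measured genes. Itgam, a subunit of complement receptor 3, read 302.8 and 783.1, 2.83-fold higher, but its other probes changed by -0.61 and 0.04. Cr2, complement receptor 2, read 37.1 and 70.5, a change of 1.15, with its other probe at 1.40. The signal of Cr2 was low, and its change with the normexp correction is not given. C7, a terminal component, was well above background upon feeding alone and was at least 2.48-fold higher there (11.4 and 32.8).

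Next in size were F13a1, the catalytic subunit of the fibrin cross-linking enzyme (24.7 and 36.2, a change of 0.75), Plaur, the urokinase receptor (-0.73), and Ggcx, the carboxylase that matures the vitamin K dependent factors (604 and 917, a change of 0.72). The F13a1 signal was low too, and its change with the normexp correction is not given. Lman1 and Mcfd2, named here after their values were seen, form the receptor that carries factors V and VIII out of the endoplasmic reticulum. Lman1 read 13263 and 20637, a change of 0.66 with its other probe at 0.90, and Mcfd2 read 20143 and 30052, a change of 0.61. The cargo genes F5 and F8 changed by -0.35 and -0.22. The protease inhibitors Serpinc1, antithrombin, and Serping1, the C1 inhibitor, changed by 0.06 and -0.01.

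Other sources of RNA that could reach these genes gave mixed values. The 5 neutrophil markers were all higher upon feeding, with a summed signal of 1437 upon fasting and 2208 upon feeding and S100a9, a calcium-binding protein of neutrophils, at 0.77. Their median change was 0.68 and came to 0.29 with the normexp correction. Among them Ngp and Ltf were well above background upon feeding alone, so their changes are lower bounds. The platelet markers had a summed signal of 1194 and 1176, most of it from Pf4, platelet factor 4, which changed by 0.03. The dimmer Gp9 and Ppbp changed by 0.14 and 0.48. Itga2b and Gp1bb were well above background upon feeding alone and had no bound above 0. Among the acute phase markers, Saa1 and Saa2, the serum amyloid A genes, changed by 0.89 and 0.96, and Hp, haptoglobin, by -0.01. Their part in the members' values was not tested.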

How the data were processed

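Liver RNA from 3 pooled male mice per group was labelled with Cy3 by the authors, hybridised to an Agilent Whole Mouse Genome array and extracted with Feature Extraction 11.0.1.1. The deposited intensities of each spot comprise a background-subtracted processed signal, a raw median signal and the local background. None is normalized between arrays. Each array held 44397 spots, of which 1377 were controls. Of the non-control spots, 63.1% (fasting) and 72.3% (feeding) were well above background, and their median local background was 30.0 and 22.0. The number of arrays, 1 per group, limits the precision, and the only spread that could be measured was that between replicate spots. The deposited value table held the local background of each spot, equal for 44397 of 44397 spots within a relative 1e-06, and was not used.

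Control and outlier spots were dropped, the log2 processed signals of the spots that carry 1 probe were averaged, and quantile normalization was applied across the 2 arrays, which is the method the study names. Probes were named through their transcript identifiers in the RefSeq table of GRCm38.p6. A gene took its probe of highest mean signal and counted as measured where at least 1 of every 2 spots of that probe were well above background on 1 array or more. A gene detected on 1 array only got a lower bound. Calls used the 2-fold threshold of the study's methods and no test, since each group had 1 array.

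Values are given in full for members past 2-fold, the 2 members of each role with the largest change otherwise, and the chains of 1 protein, 28 members in all. Members whose probes differed by over 2-fold in their change were to be added, but none did, the widest gap being 0.87 for F10. Signals are also printed for some members outside these 28, F10 and C3 among them. The members and lists were chosen with earlier results of these data known. The alternatives changed the scaling, the background correction (normexp on the median signal in limma 3.58.1 and R 4.3.3; offset 50), the probe summary, the filter, the bound and the threshold. The normalization and the 2-fold call were also run on simulated signals. That simulation left out the dimmest probes, the detection filter, the bounds and the background correction, so it does not bear on those steps. Promoter sequences are from RefSeq, GRCm38.p6; positions of probes are not given, because the array was designed on an earlier assembly.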

Additional observations from a re-analysis of the deposited data

How the results depend on the processing

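The 4 calls rest on different settings. Among the 47 members, 1 higher and 3 lower became 0 higher (F3 at 0.88) and 2 lower (C1qa and Plg) with the normexp background correction, where the median of the regulators was -0.29 and 3.23% of all genes were past 2-fold. Without a filter on dim probes there were 2 higher, F3 and Plau, and the median of the regulators was -0.10. In that setting 9.80% of all genes were past 2-fold. At a threshold of 1.5-fold there were 3 higher and 6 lower, beside 21.1% of all genes past it in either direction. At 3-fold there were 0 higher and 1 lower, C1qa, beside 2.87% of all genes. Scaling by the median moved the medians to 0.11 (complement), 0.14 (clotting factors) and 0.01 (0.00797, regulators), beside 0.12 for genes detected on both arrays, and left 16 of the 47 members lower and 31 higher. With the 75th percentile 24 were lower and 23 higher. The cause was not tested. C1qa and Plg stayed past 2-fold downward under every alternative at the 2-fold threshold, from -1.68 to -1.40 and from -1.33 to -1.05. Of the 28 members with full values, 21 moved by more than the spot-to-spot SD with median scaling, 9 with normexp, 7 on the raw median signal, 3 with the mean over probes, 2 with the 75th percentile and 0 under the other settings, and no called member changed its direction. Among the other members of these 28 the sign turned for C8g, F11, Fgg, F13b and Pros1 with median scaling. It also turned for Fgg and F13b with the 75th percentile, and for Fgb with normexp and on the raw median signal. F10, whose probes changed by 0.09 and -0.78, was not among the 28. Neither were C3 and Masp2, whose probes also differed in sign.

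Signal over background limits Plat, Masp1, Cfd and C5ar1 among the members, whose probes were dim. It also limits Cr2, C7 and F13a1 among the other pathway genes. No paired analysis was possible because each group had 1 array, which shares only the replicate number 1 with the other. The planned use of the deposited value table was not run, since it holds background.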
